A study of Mus musculus with 12 samples.

Results

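Whether loss of Lpcat3 in the liver changes the response to a diet rich in fat and sugar was asked with the diet by genotype interaction, the difference between the diet effect in knockout livers and the diet effect in floxed livers. It was computed for every gene as (LKO-HFHS minus LKO-NC) minus (FLOX-HFHS minus FLOX-NC) on the log2 scale, so a positive value means that HFHS over NC was higher in LKO than in FLOX. All 12 libraries of the series entered, out of 12. They came from livers of male C57BL/6 mice, and the labels give the same age, 8 to 10 weeks, for every sample and a feeding time of 16 weeks for the HFHS diet, so that age cannot be the age of HFHS mice at sampling. LKO-HFHS livers were of the genotype LPCAT3flox/flox-cre and came from mice on the HFHS diet, and LKO-NC livers were of the same genotype on the control diet. FLOX-HFHS livers were of the genotype LPCAT3flox/flox on the HFHS diet, and FLOX-NC livers were of that genotype on the control diet. All 4 groups thus carried the floxed allele, and Cre was present in both LKO groups alone, so an effect of Cre and an effect of losing Lpcat3 cannot be told apart. The labels name neither the promoter that drives Cre nor the deleted exons. The sugar is sucrose in the protocol and fructose in the text of the series. Each group had 3 libraries, and nothing states that they came from separate mice, so each p-value is set against the scatter of these libraries alone, and that scatter may be technical.

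Lpcat3 encodes an acyltransferase that places polyunsaturated fatty acids into lysophospholipids and so sets the fluidity of cell membranes. It is a target of the oxysterol receptor LXR, and in the liver it bears on lipoprotein secretion, on the processing of the lipogenic factor SREBP-1c and on stress of the endoplasmic reticulum. A fatty diet is known to raise lipid storage, inflammatory and scar-forming genes of the liver and to lower male-typical genes that growth hormone pulses maintain through STAT5. An interaction can arise because any 1 of the 4 groups stands apart, so the libraries of all 4 groups are given beside each value.

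Total counts ran from 34951150 to 59205759 per library. Ribosomal RNA genes took 10.6% to 34.8% of the counts in LKO-HFHS, 9.68% to 14.7% in LKO-NC, 26.6% to 34.8% in FLOX-HFHS and 8.40% to 42.3% in FLOX-NC, and the scaling factors of the libraries ran from 0.644 (FLOX-HFHS replicate 1) to 1.46 (LKO-HFHS replicate 3). All 14 hepatocyte markers listed were measured, with a summed level of 54925 to 56675 CPM (counts scaled to a common library size, with TMM factors) in LKO-HFHS, 91196 to 112099 in LKO-NC, 56923 to 67382 in FLOX-HFHS and 58331 to 125719 in FLOX-NC. Muscle markers summed to at most 1.47 CPM in any library, with 10 of 11 too low to test.

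The targeted gene came first. Lpcat3 (chromosome 6, 124663027 to 124704418, plus strand, build mm10) had 24.96, 25.9 and 29.4 CPM in LKO-HFHS, 25.4, 65.0 and 19.4 CPM in LKO-NC, 72.6, 80.6 and 75.7 CPM in FLOX-HFHS and 49.7, 49.9 and 61.9 CPM in FLOX-NC. The library labelled LKO-NC replicate 2 lay above all 3 FLOX-NC libraries in CPM, against its label, and every interaction given here includes it unless stated. In the deposited FPKM it was at 25.6, within the range of FLOX-NC (15.8, 26.7 and 33.4) and above LKO-NC replicates 1 (16.1) and 3 (11.7). The log2 interaction of Lpcat3 was -0.96 ± 0.49 (SE), with an unadjusted p of 0.0740 in edgeR's quasi-likelihood fit, and without that library it was -0.25 with a p of 0.408. Sult1e1, the estrogen sulfotransferase (spelled slut1e1 in the series title), was low throughout, at 0.308, 0.420 and 0.128 CPM in LKO-HFHS, 0.211, 0 and 0 CPM in LKO-NC, 1.73, 2.27 and 0.906 CPM in FLOX-HFHS and 0.232, 0.176 and 0 CPM in FLOX-NC. Its FLOX-HFHS libraries lay above the other 9. The log2 interaction of Sult1e1 was -1.58 ± 1.95 (SE; unadjusted p = 0.435), and it turned to 3.18 without LKO-NC replicate 1, the 1 library of its group with counts.

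Of 15982 genes tested, 0 had an interaction with an adjusted p under 0.05 in edgeR's quasi-likelihood test, and the lowest adjusted p was 0.758. An unadjusted p under 0.05 was reached by 782 genes, 4.89% of those tested, of which 504 were positive (3.15%) and 278 negative (1.74%). DESeq2 called 33 genes (0.206%), 19 positive and 14 negative, and limma voom with sample quality weights called 0. Among the 33 were 14 genes with a group at 0 counts in every library. The other 19 had counts in all groups and a mean of at least 1 CPM in the highest group. The lowest DESeq2 adjusted p, 0.000254, was that of Rdh16f1, at 0, 47.8 and 39.8 CPM in LKO-NC. Rdh16f1 had 0 counts in FLOX-NC and at most 3.62 CPM in any HFHS library. Without LKO-NC replicate 2, edgeR again called 0 of 16878 genes (lowest adjusted p 0.767), and 682 genes (4.04%) had an unadjusted p under 0.05, 412 positive (2.44%) and 270 negative (1.6%). The median interaction over all genes was 0.05, with 53.35% of genes positive. The median standard error was 0.467 on the log2 scale for the 12533 genes with a group mean of at least 1 CPM, and 90.5% of these had a standard error under 1. No interaction given below for a single gene passed the edgeR test with all 12 libraries.

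The diet effects of both genotypes, which share no library, ran largely the same way. Over the 12533 genes the Pearson r of the log2 diet effect in LKO with that in FLOX was 0.622, as a description across genes, which are not independent. In LKO, 599 genes changed with the diet (3.75% of those tested; edgeR, adjusted p under 0.05), of which 580 had the same sign in FLOX and 253 were also called there, 42.2% of the LKO calls. In FLOX, 464 genes changed (2.9%), of which 450 had the same sign in LKO and 54.5% were also called there. No gene was called in both genotypes with opposite signs (0 of 253). The median absolute diet effect of the genes called in LKO was 1.96 in LKO and 1.27 in FLOX, and that of the genes called in FLOX was 1.36 in LKO and 1.73 in FLOX, so each set was larger in the genotype whose values had chosen it.

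**Figure D1:**
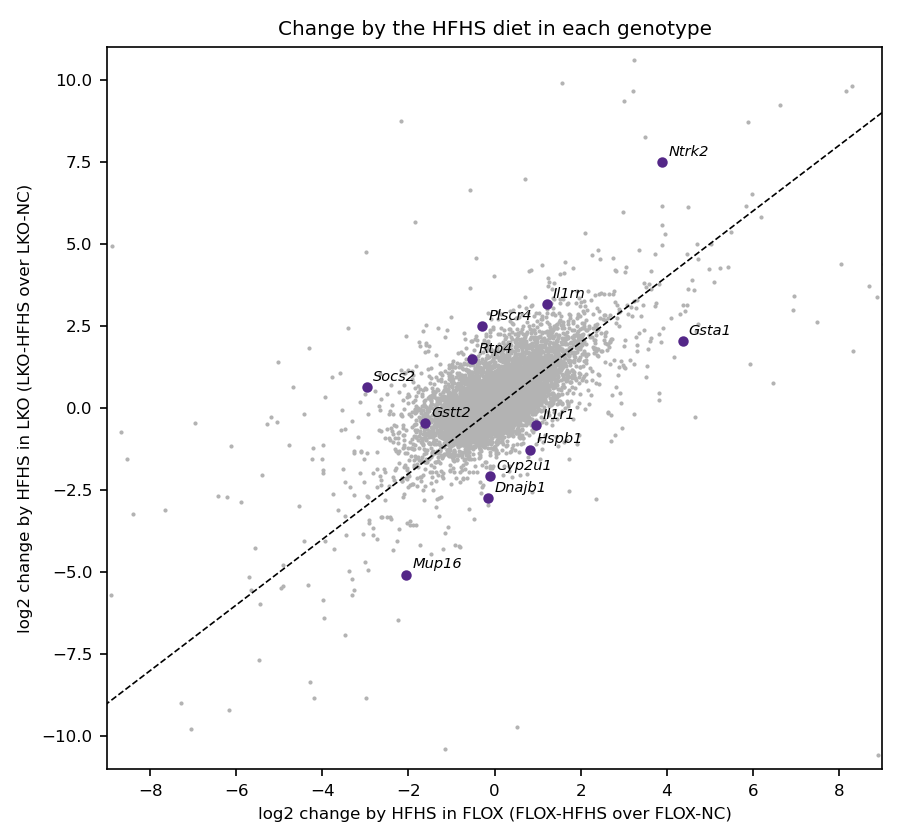
Log2 change by the HFHS diet in LKO livers (LKO-HFHS over LKO-NC, vertical axis) against that in FLOX livers (FLOX-HFHS over FLOX-NC, horizontal axis). Each grey point is 1 of 12520 genes with a group mean of at least 1 CPM (13 more lie outside the axes, and points far out can have a group at 0 counts), the dashed line marks equal change, and purple points name genes described in the text: Plscr4 and Socs2 lie above the line, Gsta1 and Dnajb1 below it.

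Genes with clone or predicted names (Gm and a number, or ending in Rik) were left out of the named genes, D630039A03Rik and Gm12454 among them. Among the 25 remaining genes of smallest interaction p (0.000124 to 0.00202, adjusted p 0.758 to 0.917 in edgeR), 16 interactions were positive and 9 negative. The group that stands apart was taken as the one whose mean log2 CPM lay farthest from the median of the 4 group means. It was LKO-HFHS for 6 of the 25, LKO-NC for 9, FLOX-HFHS for 5 and FLOX-NC for 5. That group did not overlap with the other 9 libraries for 4 of the 6 genes of LKO-HFHS, 8 of the 9 of LKO-NC, 3 of the 5 of FLOX-HFHS and 1 of the 5 of FLOX-NC, and over all tested genes a group had no overlap for 1181 (7.39%). Among the 100 genes of smallest p the counts were 24 for LKO-HFHS, 36 for LKO-NC, 19 for FLOX-HFHS and 21 for FLOX-NC. Over all tested genes LKO-HFHS stood apart for 19.3%, LKO-NC for 29.9%, FLOX-HFHS for 19.7% and FLOX-NC for 31.0%. Since small p values select genes with a distinct group, these counts describe the ranking and test nothing. DESeq2 called 19 of the 25, all but Ntrk2, Aacs, Arhgap29, Hspb1, Gstt2 and Slc8b1.

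LKO-NC stood apart below the rest for Plscr4, a member of the phospholipid scramblase family (chromosome 9, 92457373 to 92492456). Plscr4 had 6.87, 7.37 and 6.36 CPM in LKO-HFHS, 0.870, 1.37 and 1.39 CPM in LKO-NC, 2.75, 2.27 and 3.19 CPM in FLOX-HFHS and 5.04, 3.24 and 1.80 CPM in FLOX-NC. The LKO-HFHS libraries lay above all others and the LKO-NC libraries below all others, while both FLOX groups overlapped. Plscr4 rose with the diet in LKO by 2.501 ± 0.376 (log2, SE; adjusted p = 0.00363 in edgeR) and had a diet effect of -0.29 ± 0.36 in FLOX, which gives an interaction of 2.79 ± 0.51 that was 2.88 without LKO-NC replicate 2. Rtp4, an interferon-induced chaperone of receptors, had 7.79, 9.92 and 10.4 CPM in LKO-HFHS, 2.90, 3.86 and 3.17 CPM in LKO-NC, 5.77, 4.81 and 5.43 CPM in FLOX-HFHS and 8.66, 10.4 and 3.98 CPM in FLOX-NC. Its LKO-NC libraries again lay below the other 9, and 1 FLOX-NC library came close to them. The interaction of Rtp4 was 2.02 ± 0.44, and 2.14 without LKO-NC replicate 2.

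Cpeb2, an RNA-binding regulator of translation, stood apart in the other direction. It had 24.8, 38.0 and 39.9 CPM in LKO-HFHS, 67.8, 71.0 and 120 CPM in LKO-NC, 65.2, 61.7 and 57.6 CPM in FLOX-HFHS and 47.4, 27.6 and 48.5 CPM in FLOX-NC. LKO-NC was the highest group with no overlap, and FLOX-HFHS came next. Cpeb2 fell with the diet in LKO by 1.33 on the log2 scale (adjusted p = 0.0226 in edgeR), and its interaction was -1.91 ± 0.41. Ntrk2, the receptor for the neurotrophin BDNF, had 3.50, 6.62 and 3.81 CPM in LKO-HFHS, 0.0791, 0 and 0 CPM in LKO-NC, 10.97, 10.1 and 13.2 CPM in FLOX-HFHS and 0.597, 0.946 and 0.750 CPM in FLOX-NC. It rose with the diet in both genotypes (edgeR, adjusted p = 0.000245 in LKO and 0.00176 in FLOX) and was lower in LKO than in FLOX on each diet, with no overlap. The interaction of 3.59 ± 0.87 rests on a single library of LKO-NC with counts, and over the fits that leave out 1 library it ran from 2.87 to 6.93.

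In 3 further genes every LKO-NC library was at 0 counts, which allows up to 0.0228 CPM over the group (3 counts, counting error only), so their fitted interactions depend on the prior count and are no bound. Ebf1, a transcription factor known from B cells and stromal cells, had 0.379, 0.225 and 0.185 CPM in LKO-HFHS, 0.755, 0.606 and 0.926 CPM in FLOX-HFHS and 2.09, 0.968 and 0.375 CPM in FLOX-NC. Ndc80, a part of the kinetochore, had 0.829, 0.525 and 0.314 CPM in LKO-HFHS, 0.178, 0.404 and 0.185 CPM in FLOX-HFHS and 0.232, 0.330 and 0.107 CPM in FLOX-NC. Msl3l2 had 0.237 to 0.525 CPM in LKO-HFHS, 0.178 to 0.309 CPM in FLOX-HFHS and 0.0714 to 0.730 CPM in FLOX-NC. All 3 were thus rare transcripts in every group. Cyp2b9, a cytochrome P450 typical of female liver, was taken by the size of its interaction and shows the same pattern at a higher level: it had 47.8, 18.3 and 38.8 CPM in LKO-HFHS, no counts in LKO-NC, 72.2, 27.9 and 31.3 CPM in FLOX-HFHS and 0.995, 1.94 and 0.125 CPM in FLOX-NC. It rose with the diet in both genotypes (adjusted p = 0.00155 in LKO and 0.00948 in FLOX, edgeR), reads of Cyp2b copies can be shared, and its place in the ranking rests on the difference between 0 and about 1 CPM on the control diet.

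LKO-HFHS stood apart above the rest for Il1rn, the antagonist of the interleukin 1 receptor. Il1rn had 6.09, 6.39 and 7.62 CPM in LKO-HFHS, 0.686, 0.866 and 0.667 CPM in LKO-NC, 3.07, 3.80 and 3.13 CPM in FLOX-HFHS and 2.09, 1.34 and 0.911 CPM in FLOX-NC. All 4 groups were separate, with both LKO groups at the outside and both FLOX groups between them. Il1rn rose with the diet in LKO by 3.18 ± 0.35 (adjusted p = 0.00103 in edgeR), against 1.21 ± 0.33 in FLOX (adjusted p = 0.0697), with an interaction of 1.96 ± 0.47. Aacs, which turns the ketone body acetoacetate into acetoacetyl-CoA for lipid synthesis, had 31.8, 46.4 and 28.2 CPM in LKO-HFHS, 12.98, 16.0 and 11.3 CPM in LKO-NC, 17.5, 22.6 and 24.8 CPM in FLOX-HFHS and 22.6, 24.6 and 17.8 CPM in FLOX-NC. The LKO groups lay above and below both FLOX groups, which overlapped. Aacs rose in LKO by 1.40 ± 0.24 (adjusted p = 0.00717 in edgeR) and had a diet effect of 0.00 ± 0.24 in FLOX, an interaction of 1.40 ± 0.34. Cda, which deaminates cytidine, had 9.68, 9.74 and 7.33 CPM in LKO-HFHS, 2.08, 2.39 and 6.09 CPM in LKO-NC, 4.35, 2.78 and 3.46 CPM in FLOX-HFHS and 7.56, 6.76 and 6.63 CPM in FLOX-NC. Its highest group overlapped with FLOX-NC.

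LKO-HFHS stood apart below the rest for Cyp2u1, a cytochrome P450 that hydroxylates long-chain fatty acids and is on the list of male-biased genes. Cyp2u1 had 9.66, 7.70 and 7.43 CPM in LKO-HFHS, 31.2, 46.1 and 27.8 CPM in LKO-NC, 54.1, 26.8 and 21.9 CPM in FLOX-HFHS and 29.4, 45.0 and 36.4 CPM in FLOX-NC. The other 3 groups overlapped one another, and LKO-HFHS lay below all of them. Cyp2u1 fell in LKO by 2.08 on the log2 scale (SE 0.34, adjusted p = 0.00513 in edgeR), against a diet effect of -0.11 ± 0.32 in FLOX, an interaction of -1.98 ± 0.46 that was -1.73 without LKO-NC replicate 2. Zfp979, a zinc finger gene, had 0.876, 1.64 and 0.9699 CPM in LKO-HFHS, 2.77, 4.62 and 2.79 CPM in LKO-NC, 7.51, 5.79 and 2.84 CPM in FLOX-HFHS and 2.02, 2.93 and 2.82 CPM in FLOX-NC. Shld2, a subunit of the shieldin complex of DNA repair, had 19.8, 19.8 and 14.3 CPM in LKO-HFHS, 23.9, 31.8 and 33.8 CPM in LKO-NC, 27.9, 34.1 and 32.3 CPM in FLOX-HFHS and 22.1, 19.1 and 24.0 CPM in FLOX-NC. For Zfp979 the LKO-HFHS libraries lay below the other 9, and for Shld2 they overlapped with FLOX-NC.

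**Figure D2:**
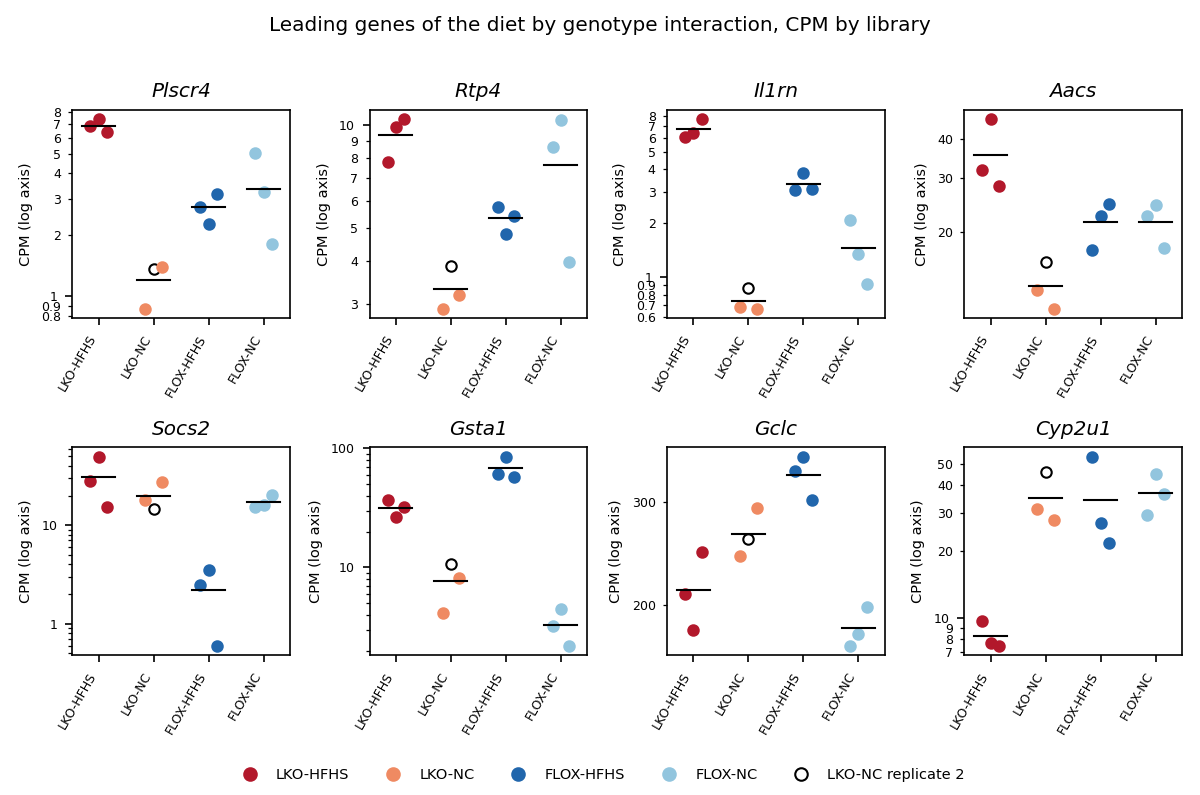
CPM (log axis) of 8 of the 25 leading genes in each of the 12 libraries, grouped as LKO-HFHS, LKO-NC, FLOX-HFHS and FLOX-NC. Points are libraries, bars are group means, and the open circle is the library labelled LKO-NC replicate 2. Socs2 is lowest in FLOX-HFHS (0.597 to 3.53 CPM) and Cyp2u1 in LKO-HFHS (7.43 to 9.66 CPM).

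FLOX-HFHS stood apart for 5 genes. Socs2, a target of STAT5 that damps growth hormone signalling (chromosome 10, 95385362 to 95417180), had 28.1, 49.8 and 15.4 CPM in LKO-HFHS, 18.0, 14.4 and 27.6 CPM in LKO-NC, 2.49, 3.53 and 0.597 CPM in FLOX-HFHS and 15.2, 16.0 and 20.3 CPM in FLOX-NC. The 3 FLOX-HFHS libraries lay below the other 9, which overlapped. Socs2 fell in FLOX by 2.96 on the log2 scale (SE 0.56, adjusted p = 0.0149 in edgeR), against a diet effect of 0.63 ± 0.51 in LKO, an interaction of 3.60 ± 0.75 that stayed between 3.04 and 4.18 when any 1 library was left out. Gclc, the catalytic subunit of the first enzyme of glutathione synthesis, had 208, 181 and 246 CPM in LKO-HFHS, 242, 260 and 292 CPM in LKO-NC, 339, 359 and 302 CPM in FLOX-HFHS and 170, 178 and 198 CPM in FLOX-NC. It was highest in FLOX-HFHS with no overlap, rose in FLOX by 0.87 ± 0.19 (adjusted p = 0.0291 in edgeR) and had a diet effect of -0.32 ± 0.19 in LKO, an interaction of -1.19 ± 0.27. Gstt2, a glutathione transferase of the theta class, had 60.5, 71.5 and 53.4 CPM in LKO-HFHS, 95.9, 92.8 and 67.7 CPM in LKO-NC, 32.8, 29.1 and 31.4 CPM in FLOX-HFHS and 106, 104 and 77.1 CPM in FLOX-NC. It fell in FLOX by 1.62 on the log2 scale (adjusted p = 0.00176 in edgeR), with an interaction of 1.16 ± 0.29.

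Il1r1, the signalling receptor of interleukin 1, had 28.9, 32.2 and 31.3 CPM in LKO-HFHS, 45.1, 47.0 and 39.5 CPM in LKO-NC, 64.2, 38.4 and 54.7 CPM in FLOX-HFHS and 33.0, 24.4 and 22.8 CPM in FLOX-NC. FLOX-HFHS and LKO-NC overlapped at the top, and LKO-HFHS overlapped with FLOX-NC at the bottom, so the diet ordered the genotypes the opposite way. Il1r1 rose in FLOX by 0.97 ± 0.22 (adjusted p = 0.0343 in edgeR) and had a diet effect of -0.51 ± 0.22 in LKO (adjusted p = 0.239), an interaction of -1.48 ± 0.31. Il1r1 and its antagonist Il1rn thus had interactions of opposite sign. Slc23a2, a vitamin C transporter, had 14.9, 14.6 and 14.1 CPM in LKO-HFHS, 11.7, 10.0 and 9.79 CPM in LKO-NC, 11.4, 8.55 and 8.75 CPM in FLOX-HFHS and 17.2, 13.7 and 17.4 CPM in FLOX-NC. Its interaction of 1.22 ± 0.27 came from crossed group means: LKO-HFHS overlapped with FLOX-NC at the top and LKO-NC with FLOX-HFHS at the bottom.

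FLOX-NC stood apart for Gsta1, a glutathione transferase of the alpha class, with overlap. Gsta1 had 36.7, 26.4 and 31.9 CPM in LKO-HFHS, 4.17, 10.6 and 8.13 CPM in LKO-NC, 60.9, 85.3 and 57.9 CPM in FLOX-HFHS and 3.25, 4.45 and 2.197 CPM in FLOX-NC. It rose with the diet in LKO by 2.05 ± 0.34 (adjusted p = 0.00604 in edgeR) and in FLOX by 4.37 ± 0.38 (adjusted p = 0.00019), and the difference of -2.32 ± 0.48 became -2.01 without LKO-NC replicate 2. Reads of Gsta1 can be split with close copies. Arhgap29 had 69.5, 52.8 and 42.2 CPM in LKO-HFHS, 46.9, 42.2 and 30.6 CPM in LKO-NC, 39.0, 38.0 and 33.8 CPM in FLOX-HFHS and 93.3, 64.2 and 60.9 CPM in FLOX-NC. Slc8b1, which exchanges sodium for calcium across the inner mitochondrial membrane, had 18.9, 19.2 and 19.7 CPM in LKO-HFHS, 16.3, 14.4 and 13.1 CPM in LKO-NC, 18.0, 11.1 and 14.2 CPM in FLOX-HFHS and 25.2, 19.9 and 27.8 CPM in FLOX-NC, and was highest in FLOX-NC with no overlap. Ndor1 had 1.02, 1.92 and 2.40 CPM in LKO-HFHS, 0.264, 0.131 and 1.59 CPM in LKO-NC, 0.222, 0.0673 and 0.329 CPM in FLOX-HFHS and 15.0, 3.70 and 1.45 CPM in FLOX-NC, so that its interaction of 6.43 ± 1.42 leans on 1 high library of FLOX-NC. Eno2, the neuronal form of enolase, had 0.120 to 0.257 CPM in LKO-HFHS, 0 counts in LKO-NC and in FLOX-HFHS and 0.0714 to 0.663 CPM in FLOX-NC, and no fold is given for it.

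All 25 interactions kept their sign in each of 12 fits that left out 1 library. Without LKO-NC replicate 2, 25 of 25 kept an unadjusted p under 0.05, and the largest move among the 21 with counts in every group was 0.477 on the log2 scale. The 25 were chosen for small p in these same libraries, so this stability was largely set by the choice and tests nothing. Some genes picked for small p without LKO-NC replicate 2 moved more. Arhgap11a went from 2.41 to 7.14 and Neurl1b from 3.57 to 8.34. Among LKO-NC libraries both had counts in replicate 2 alone (0.210 CPM), so their values without it depend on the prior count. Foxq1 went from -2.64 to -2.99. The ranking itself was less stable. Of the 100 genes of smallest p, 63 were among the 100 without LKO-NC replicate 2, and this overlap ran from 48 without FLOX-NC replicate 3 to 75 without LKO-HFHS replicate 3.

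**Figure D3:**
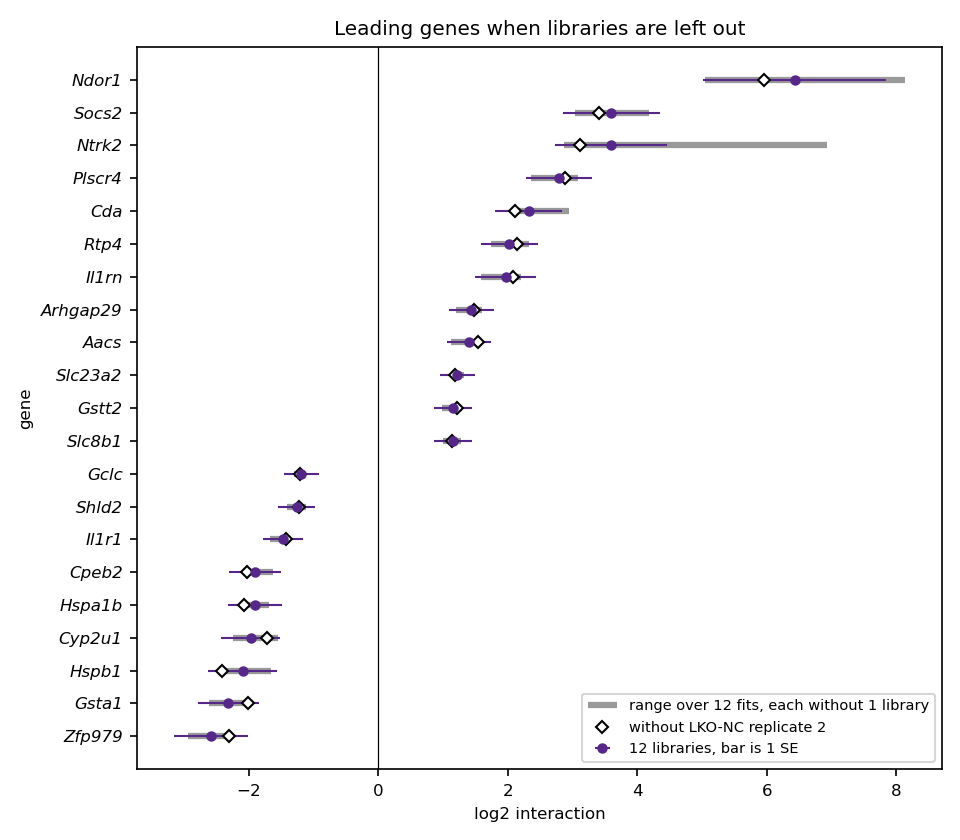
Log2 interaction of the 21 leading genes that had counts in every group. Purple points are values from 12 libraries with 1 standard error, open diamonds are values without LKO-NC replicate 2, and grey bars give the range over 12 fits that each leave out 1 library. No bar crosses 0, which the choice of genes by small p in the same libraries largely fixed. The widest bars belong to Ntrk2 (2.87 to 6.93) and Ndor1 (5.04 to 8.14).

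Several genes of the immediate early and heat shock responses had their highest libraries in LKO-NC. Heat shock factor HSF1 induces the chaperone genes among them when proteins misfold, and the immediate early transcription factors follow signals and stress within minutes. Promoters of 3 chaperone genes described next are shown for their heat shock elements, as windows from RefSeq (build GRCm38.p6) of 250 bases before to 50 after the start of the gene, read 5′ to 3′ on the strand of the gene, with the letters GAANNTTC in capitals. These are Hspa1b (chr17:34959189-34959488, minus strand), Hspa1a (chr17:34972107-34972406, minus strand) and Hspb1 (chr5:135887669-135887968, plus strand).
Hspa1b: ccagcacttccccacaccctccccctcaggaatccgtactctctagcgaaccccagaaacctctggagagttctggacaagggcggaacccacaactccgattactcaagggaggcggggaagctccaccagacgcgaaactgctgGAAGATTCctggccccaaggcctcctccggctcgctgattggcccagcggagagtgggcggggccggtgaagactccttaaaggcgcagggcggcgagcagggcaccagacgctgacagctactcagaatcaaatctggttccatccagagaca
Hspa1a: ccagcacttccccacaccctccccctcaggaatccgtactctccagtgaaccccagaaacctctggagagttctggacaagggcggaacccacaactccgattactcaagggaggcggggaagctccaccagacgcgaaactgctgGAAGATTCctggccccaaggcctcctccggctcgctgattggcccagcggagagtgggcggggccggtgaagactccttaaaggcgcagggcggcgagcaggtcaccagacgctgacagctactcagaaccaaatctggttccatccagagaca
Hspb1: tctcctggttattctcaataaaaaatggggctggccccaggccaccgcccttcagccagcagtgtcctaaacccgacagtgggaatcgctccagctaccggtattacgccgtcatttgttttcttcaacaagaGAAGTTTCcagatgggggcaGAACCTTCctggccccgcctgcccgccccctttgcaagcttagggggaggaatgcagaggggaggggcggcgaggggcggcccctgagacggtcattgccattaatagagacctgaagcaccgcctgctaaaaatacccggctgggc
Windows of Hspa1b and Hspa1a were identical at 296 of 300 bases, and each held 1 match, while that of Hspb1 held 2. The letters GAANNTTC, which read the same on both strands, occurred in the windows of 10 of 27 genes of the list with a window (37.0%), against 9.04% of 27025 genes in all. A match is a description of the sequence and not a site of binding.

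The inducible HSP70 gene Hspa1b had 23.3, 16.0 and 29.0 CPM in LKO-HFHS, 96.7, 82.3 and 144 CPM in LKO-NC, 20.7, 24.1 and 19.9 CPM in FLOX-HFHS and 33.4, 30.0 and 18.1 CPM in FLOX-NC. All 3 LKO-NC libraries, the one labelled replicate 2 included, lay above the other 9. Hspa1b fell with the diet in LKO by 2.24 on the log2 scale (SE 0.30, adjusted p = 0.00191 in edgeR), against -0.33 ± 0.29 in FLOX, an interaction of -1.91 ± 0.41 that was -2.07 without LKO-NC replicate 2. Its near-identical neighbour Hspa1a, whose reads can be split with it, had 0.947, 1.44 and 2.37 CPM in LKO-HFHS, 8.73, 10.3 and 21.4 CPM in LKO-NC, 2.18, 2.78 and 2.24 CPM in FLOX-HFHS and 3.62, 5.52 and 1.80 CPM in FLOX-NC. The small heat shock protein gene Hspb1 had 30.3, 44.6 and 55.1 CPM in LKO-HFHS, 99.4, 51.8 and 161 CPM in LKO-NC, 36.3, 27.6 and 38.3 CPM in FLOX-HFHS and 13.5, 17.7 and 26.0 CPM in FLOX-NC. Here LKO-NC replicate 2 fell among the LKO-HFHS libraries, and the interaction of -2.10 ± 0.53 became -2.42 without it. Dnajb1, the HSP40 partner of HSP70, had 22.8, 26.5 and 24.6 CPM in LKO-HFHS, 87.4, 53.7 and 358 CPM in LKO-NC, 27.1, 28.1 and 22.1 CPM in FLOX-HFHS and 25.9, 34.6 and 25.3 CPM in FLOX-NC. It fell in LKO by 2.75 on the log2 scale (adjusted p = 0.0137 in edgeR), with an interaction of -2.60 ± 0.73 that was -3.03 without LKO-NC replicate 2. When LKO-NC replicate 3, its highest library, was left out, it was -1.40.

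In the immediate early genes LKO-NC replicate 2 lay apart from the other libraries of its group. Junb, a subunit of the AP-1 factor, had 13.05, 10.7 and 14.5 CPM in LKO-HFHS, 43.8, 16.3 and 69.6 CPM in LKO-NC, 27.8, 11.996 and 17.3 CPM in FLOX-HFHS and 15.6, 15.9 and 17.4 CPM in FLOX-NC. Egr1, a zinc finger factor, had 5.35, 3.05 and 7.90 CPM in LKO-HFHS, 38.2, 4.67 and 252 CPM in LKO-NC, 7.46, 3.28 and 4.49 CPM in FLOX-HFHS and 9.06, 7.26 and 12.4 CPM in FLOX-NC. In both genes LKO-NC replicates 1 and 3 were the highest of all libraries and LKO-NC replicate 2 lay among the other groups. Without that library the interaction of Junb was -2.37, against -1.98 ± 0.59 with it. That of Egr1 was -3.82, against -3.25 ± 1.37, and -1.08 without LKO-NC replicate 3. Fos had 1.75, 0.480 and 1.18 CPM in LKO-HFHS, 4.51, 0.289 and 15.3 CPM in LKO-NC, 5.51, 1.16 and 1.01 CPM in FLOX-HFHS and 0.498, 1.45 and 2.14 CPM in FLOX-NC.

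Over the list of 33 early and heat shock genes, 30 interactions were negative and 3 positive, against 46.65% negative over all genes. In 11 of 33, all negative, the unadjusted p was under 0.05, against 1.74% of all genes, and the median was -0.76. The median diet effect was -0.92 in LKO and 0.05 in FLOX, and the median knockout effect was 0.10 on HFHS and 0.86 on NC. Without LKO-NC replicate 2 the median was -0.99, with 15 of 33 under 0.05 (1.6% of all genes), without LKO-NC replicate 3 it was -0.35 with 5, and without FLOX-NC replicate 2 it was -0.76 with 7. The summed level of the list was 2484 to 2922 CPM in LKO-HFHS, 2697 to 5011 CPM in LKO-NC, 2254 to 2496 CPM in FLOX-HFHS and 2040 to 2361 CPM in FLOX-NC. Erythroid markers, of which 7 of 9 were measured, summed to 91.7 to 153 CPM in LKO-HFHS, 155 to 388 CPM in LKO-NC, 88.6 to 185 CPM in FLOX-HFHS and 94.0 to 235 CPM in FLOX-NC, and the part of blood in the values of the list was not tested.

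**Figure D4:**
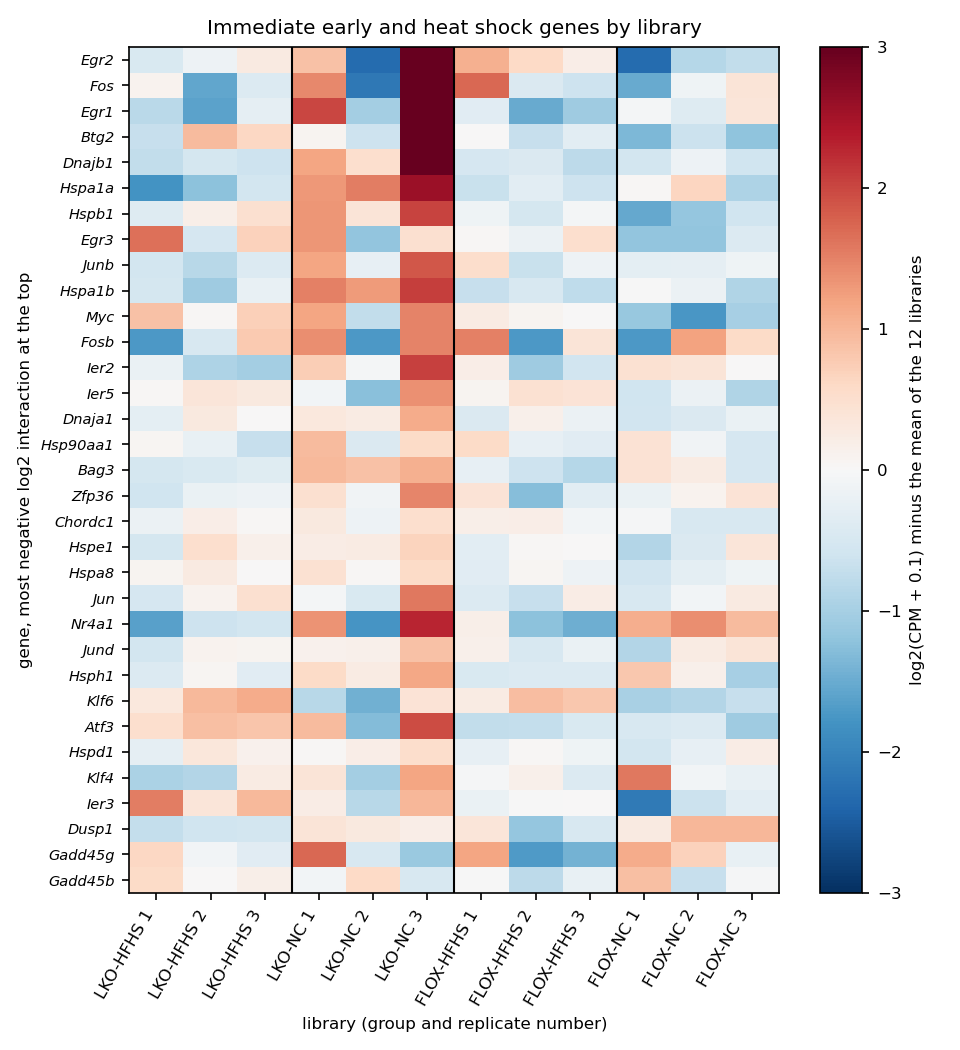
Levels of 33 immediate early and heat shock genes (rows, the most negative interaction at the top) in 12 libraries (columns), as log2(CPM + 0.1) minus the mean of the 12 libraries, with the colour scale ending at 3 in each direction. LKO-NC replicates 1 and 3 are red through most of the upper rows, and LKO-NC replicate 2 is red for Hspa1a, Hspa1b and Bag3 but blue for Fos, Egr1 and Myc.

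Endoplasmic reticulum chaperones had mostly negative interactions as well. Secretory cells raise these genes through the factors ATF6 and XBP1 when folding in the endoplasmic reticulum falls behind. Of 30 measured genes, 27 interactions were negative and 3 positive. An unadjusted p under 0.05 was reached by 10, all negative, against 1.74% of all genes. The median was -0.64, or -0.65 without LKO-NC replicate 2. It ran from -0.49 without FLOX-NC replicate 1 to -0.84 without FLOX-NC replicate 3. The count under 0.05 ran from 7 without LKO-HFHS replicate 1 to 14 without FLOX-NC replicate 3, where 11.4% of all genes were. By the mean log2 CPM of the list, FLOX-NC was the group that stood apart. Median diet effects were -0.46 in LKO and 0.16 in FLOX, and median knockout effects were -0.28 on HFHS and 0.39 on NC. Hyou1, a large chaperone of the HSP70 kind, had 33.0, 33.9 and 37.6 CPM in LKO-HFHS, 76.0, 59.3 and 73.2 CPM in LKO-NC, 52.1, 42.1 and 52.7 CPM in FLOX-HFHS and 22.6, 53.7 and 43.8 CPM in FLOX-NC. All 3 LKO-NC libraries lay above the other 9, LKO-HFHS lay below FLOX-HFHS and within the range of FLOX-NC, and the interaction was -1.29 ± 0.38. Sdf2l1, a cofactor of the chaperone BiP, had 11.6, 13.1 and 14.2 CPM in LKO-HFHS, 46.9, 47.8 and 36.1 CPM in LKO-NC, 33.5, 15.6 and 18.3 CPM in FLOX-HFHS and 11.6, 27.7 and 32.8 CPM in FLOX-NC, with an interaction of -1.65 ± 0.51. Hspa5, which encodes BiP itself, had 260, 423 and 456 CPM in LKO-HFHS, 566, 587 and 755 CPM in LKO-NC, 362, 493 and 496 CPM in FLOX-HFHS and 307, 406 and 457 CPM in FLOX-NC, and its interaction was -0.95 ± 0.37. In Hspa5 too LKO-NC was highest with no overlap.

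Not every member had LKO-NC highest with no overlap. Asns, an amino acid synthetase gene that ATF4 induces, had 2.08, 0.855 and 1.65 CPM in LKO-HFHS, 0.818, 2.78 and 1.62 CPM in LKO-NC, 0.577, 3.84 and 6.19 CPM in FLOX-HFHS and 0.332, 0.484 and 0.304 CPM in FLOX-NC. Here FLOX-NC was the group that stood apart, below all others, and Asns rose with the diet in FLOX by 3.24 ± 0.75 (adjusted p = 0.0379 in edgeR), with an interaction of -3.43 ± 1.002. Ddit3, the proapoptotic factor CHOP, had 8.33, 4.61 and 5.19 CPM in LKO-HFHS, 19.7, 8.45 and 19.4 CPM in LKO-NC, 10.7, 7.62 and 9.16 CPM in FLOX-HFHS and 15.5, 5.33 and 6.02 CPM in FLOX-NC. The endoplasmic reticulum stress element (CCAAT, 9 bases of any kind, then CCACG) occurred on either strand in the windows of 7 of 28 genes of the list (25%), against 0.137% of 27025 genes, and not in that of Sdf2l1.

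Interferon-induced genes leaned the other way. Interferons induce them through a response element in their promoters. Of 50 measured genes, 43 interactions were positive and 7 negative, against 53.35% positive over all genes. The median was 0.65, and 0.68 without LKO-NC replicate 2. An unadjusted p under 0.05 was reached by 6 of 50, all positive, against 3.15% of all genes. Median diet effects were 1.003 in LKO and 0.319 in FLOX, and median knockout effects were 0.12 on HFHS and -0.46 on NC. Leaving out FLOX-NC replicate 1 gave the lowest median, 0.46. Without FLOX-HFHS replicate 1, 12 genes were under 0.05, against 5.81% of all genes. Without FLOX-NC replicate 3, 12 were, 1 of them negative, against 11.4% of all genes.

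Igtp, an interferon-gamma-induced GTPase of the immunity-related family, is shown for its promoter (RefSeq, build GRCm38.p6, chr11:58199306-58199605, plus strand), with the interferon-stimulated response element (GAAA, 2 bases of any kind, then GAAA) in capitals.
Igtp: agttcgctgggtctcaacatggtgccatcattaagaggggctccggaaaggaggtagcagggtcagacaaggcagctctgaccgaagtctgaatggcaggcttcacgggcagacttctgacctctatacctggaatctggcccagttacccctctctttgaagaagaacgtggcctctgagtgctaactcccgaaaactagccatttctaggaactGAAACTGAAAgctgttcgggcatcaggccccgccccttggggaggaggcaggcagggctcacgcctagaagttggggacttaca
This pattern, searched on both strands, occurred in the windows of 20 of 35 genes of the list with a window (57.1%), against 3.99% of 27025 genes. Igtp had 13.4, 16.5 and 13.8 CPM in LKO-HFHS, 7.10, 9.74 and 8.42 CPM in LKO-NC, 9.55, 10.3 and 10.1 CPM in FLOX-HFHS and 10.2, 10.3 and 12.5 CPM in FLOX-NC. The LKO-HFHS libraries were highest with no overlap, and the interaction was 0.94 ± 0.27. Usp18, a protease that removes ISG15 and damps interferon signalling, had 6.13, 9.87 and 13.3 CPM in LKO-HFHS, 0.923, 3.36 and 1.26 CPM in LKO-NC, 5.597, 6.02 and 7.76 CPM in FLOX-HFHS and 3.05, 4.40 and 3.57 CPM in FLOX-NC. LKO-NC replicate 2 again lay among the FLOX-NC libraries, and without it the interaction was 2.34, against 1.59 ± 0.61 with all libraries. Usp18 rose with the diet in LKO by 2.41 ± 0.45 (adjusted p = 0.0105 in edgeR), against 0.81 ± 0.43 in FLOX (adjusted p = 0.350).

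Antigen presentation genes, which encode the class I and class II molecules that show peptides to T cells, had 19 positive and 5 negative interactions among 24, with a median of 0.61 that was 0.44 without LKO-NC replicate 2. In 5 of 24, all positive, the unadjusted p was under 0.05, against 3.15% of all genes. That count was 2, with a median of 0.39, without LKO-HFHS replicate 3, and it was 3 without LKO-NC replicate 2, FLOX-HFHS replicate 1 or FLOX-NC replicate 1. H2-Aa, an alpha chain of class II, had 41.4, 35.8 and 54.7 CPM in LKO-HFHS, 11.2, 6.80 and 12.4 CPM in LKO-NC, 21.7, 39.2 and 47.6 CPM in FLOX-HFHS and 17.8, 23.8 and 12.8 CPM in FLOX-NC. The LKO-NC libraries were lowest with no overlap. The class I gene H2-Q4, one of a family of close copies, had 26.6, 26.1 and 34.8 CPM in LKO-HFHS, 14.3, 13.3 and 14.4 CPM in LKO-NC, 23.9, 22.1 and 24.3 CPM in FLOX-HFHS and 29.7, 21.6 and 14.4 CPM in FLOX-NC. Since the samples are whole liver, fewer cells of a type and less RNA per cell cannot be told apart.

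Markers of the cells that could carry such genes moved as follows. B and plasma cell markers had 10 of 10 positive interactions, median 1.05, with 0 under 0.05, and summed to 14.0 to 21.9 CPM in LKO-HFHS, 11.2 to 21.5 CPM in LKO-NC, 14.2 to 21.0 CPM in FLOX-HFHS and 18.9 to 26.1 CPM in FLOX-NC. Monocyte and macrophage markers had 13 positive and 1 negative interaction among 14, median 0.57, with 1 under 0.05, and summed to 299 to 450 CPM in LKO-HFHS, 89.3 to 131 CPM in LKO-NC, 156 to 426 CPM in FLOX-HFHS and 82.8 to 108 CPM in FLOX-NC. Their median diet effect was 2.85 in LKO and 1.83 in FLOX. The median interaction was 0.12 when FLOX-HFHS replicate 1 was left out, 0.30 when FLOX-NC replicate 3 was and 0.88 when FLOX-HFHS replicate 2 was. The marker under 0.05 was Gpnmb, a glycoprotein of lipid-laden macrophages, which had 3.43, 2.78 and 6.09 CPM in LKO-HFHS, 0 in LKO-NC, 1.33, 1.85 and 2.82 CPM in FLOX-HFHS and 0, 0.616 and 0 CPM in FLOX-NC, and no marker was under 0.05 without FLOX-NC replicate 2 (0 of 14). Kupffer cell markers had a median interaction of 0.07 over 13 genes (-0.24 without FLOX-NC replicate 1 to 0.21 without FLOX-HFHS replicate 2), with median diet effects of 1.05 in LKO and 1.39 in FLOX. Of the T and NK cell markers 9 of 14 were measured, with sums of at most 4.18 CPM in any library and Cd8a, Cd8b1, Ncr1, Gzmb and Prf1 too low to test. The part of these cells in the interactions of immune genes was not tested.

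Genes with a sex bias in liver had some of the largest medians. Growth hormone pulses keep male-biased genes on in male mice, and female-biased genes are low there. The median diet effect of the male-biased list was -3.25 in LKO and -2.07 in FLOX over 30 measured genes, and the median knockout effect was -0.62 on HFHS and 0.41 on NC. Of 30 interactions 26 were negative and 4 positive, with 9 negative and 1 positive at an unadjusted p under 0.05, against 1.74% negative and 3.15% positive over all genes, and the median was -1.11, or -0.99 without LKO-NC replicate 2. Negative members under 0.05 numbered 14 when LKO-HFHS replicate 2 or FLOX-NC replicate 3 was left out. They numbered 6 when FLOX-HFHS replicate 1 was. Over all genes, 11.4% were under 0.05 in either direction without FLOX-NC replicate 3. The summed level of the list was 4650 to 9169 CPM in LKO-HFHS, 33488 to 59953 CPM in LKO-NC, 8239 to 10592 CPM in FLOX-HFHS and 11412 to 45822 CPM in FLOX-NC. LKO and FLOX overlapped on each diet.

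Major urinary protein genes, which encode pheromone carriers made in male liver, held much of that sum. Mup17 had 745, 492 and 182 CPM in LKO-HFHS, 7909, 8000 and 9583 CPM in LKO-NC, 1197, 433 and 493 CPM in FLOX-HFHS and 1310, 2857 and 2857 CPM in FLOX-NC. Its interaction was -2.44 ± 0.72, and LKO-NC was highest with no overlap. Mup16 had 15.9, 13.2 and 3.94 CPM in LKO-HFHS, 243, 341 and 527 CPM in LKO-NC, 56.0, 12.4 and 9.43 CPM in FLOX-HFHS and 69.4, 118 and 133 CPM in FLOX-NC, and fell with the diet in LKO by 5.07 on the log2 scale (adjusted p = 0.00367 in edgeR), with an interaction of -3.03 ± 0.92 that was -1.85 without FLOX-HFHS replicate 1. These genes are near-identical copies, and how their reads were divided is uncertain. Hsd3b5, a male-specific steroid dehydrogenase, had 0.189, 0.15003 and 0.328 CPM in LKO-HFHS, 128, 241 and 233 CPM in LKO-NC, 2.80, 0.488 and 0.638 CPM in FLOX-HFHS and 59.9, 158 and 270 CPM in FLOX-NC. Its LKO-HFHS libraries were lowest with no overlap, both NC groups overlapped, and the interaction was -2.72 ± 0.95, or -1.65 without FLOX-HFHS replicate 1. Nat8, an acetyltransferase of the kidney and liver, had 6.32, 6.53 and 6.12 CPM in LKO-HFHS, 15.9, 31.9 and 25.3 CPM in LKO-NC, 10.6, 13.7 and 12.4 CPM in FLOX-HFHS and 12.5, 19.9 and 23.1 CPM in FLOX-NC. The 1 positive member under 0.05 was Cyp4a12b, a P450 of the fatty acid omega-hydroxylase family, at 3.31, 6.96 and 2.51 CPM in LKO-HFHS, 32.0, 37.0 and 31.9 CPM in LKO-NC, 1.87, 0.824 and 1.21 CPM in FLOX-HFHS and 21.5, 42.2 and 24.3 CPM in FLOX-NC.

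Of 31 female-biased genes listed, 24 were measured, while Cyp3a16, Cyp3a41a, Cyp3a41b, Sult2a1, Sult2a5, Sult3a1 and A1bg were not tested. Among the 24, 18 interactions were positive and 6 negative, against 53.35% positive over all genes. An unadjusted p under 0.05 was reached by 8, all positive, against 3.15% of all genes. The median was 1.11, or 0.96 without LKO-NC replicate 2. Without FLOX-HFHS replicate 1 it was 0.89, with 5 under 0.05. Median diet effects were 2.05 in LKO and 0.55 in FLOX, and median knockout effects were 0.55 on HFHS and -0.15 on NC. Fmo2, a flavin monooxygenase, had 22.8, 25.6 and 21.4 CPM in LKO-HFHS, 4.75, 3.20 and 6.13 CPM in LKO-NC, 4.89, 9.19 and 14.1 CPM in FLOX-HFHS and 7.397, 6.71 and 4.32 CPM in FLOX-NC. The LKO-HFHS libraries lay above the other 9, and the interaction was 1.69 ± 0.50. Acot3, a peroxisomal acyl-CoA thioesterase, had 30.8, 44.1 and 24.8 CPM in LKO-HFHS, 7.57, 8.35 and 4.67 CPM in LKO-NC, 2.75, 10.6 and 3.15 CPM in FLOX-HFHS and 17.0, 5.17 and 5.22 CPM in FLOX-NC, with LKO-HFHS again highest and an interaction of 2.99 ± 0.79.

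Acot3 is also a target of PPAR alpha, the receptor that fatty acids activate to raise their own oxidation. Of 37 measured PPAR alpha and oxidation genes 24 interactions were positive and 13 negative, with a median of 0.23. An unadjusted p under 0.05 was reached by 8, all positive, against 3.15% of all genes, and by 5 without LKO-NC replicate 3 or without FLOX-NC replicate 1. All 8 but Ucp2 belong to 2 families of close copies, the acyl-CoA thioesterases (Acot1, Acot2, Acot3 and Acot4) and the cytochrome P450 4A hydroxylases (Cyp4a14, Cyp4a31 and Cyp4a32). Acot1, the cytosolic member, had 6.01, 12.8 and 7.90 CPM in LKO-HFHS, 11.4, 12.7 and 14.3 CPM in LKO-NC, 1.02, 2.79 and 2.61 CPM in FLOX-HFHS and 10.3, 7.73 and 10.4 CPM in FLOX-NC. Cyp4a14, which hydroxylates fatty acids at the omega end, had 395, 362 and 291 CPM in LKO-HFHS, 258, 205 and 484 CPM in LKO-NC, 62.1, 93.2 and 116 CPM in FLOX-HFHS and 270, 123 and 268 CPM in FLOX-NC. For both genes FLOX-HFHS was the group apart, below the other 9 libraries, with interactions of 1.60 ± 0.50 for Acot1 and 1.43 ± 0.52 for Cyp4a14.

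Cholesterol synthesis genes, which SREBP-2 raises when membrane sterol is low, had 22 positive and 3 negative interactions among 25, with a median of 0.54. It was 0.46 when LKO-NC replicate 2 was left out, 0.36 when LKO-NC replicate 1 was and 0.22 when LKO-HFHS replicate 2 was, with 17 positive and 8 negative. Median diet effects were -0.40 in LKO and -0.94 in FLOX, and median knockout effects were 0.34 on HFHS and -0.29 on NC. An unadjusted p under 0.05 was reached by 4, Nsdhl, Fdps, Lss and Fdft1, all positive, against 3.15% of all genes. That number was 2 when LKO-HFHS replicate 2, LKO-NC replicate 2, FLOX-HFHS replicate 3 or FLOX-NC replicate 2 was left out, and 8 when FLOX-NC replicate 1 was. Nsdhl, a sterol dehydrogenase, had 20.3, 20.8 and 17.3 CPM in LKO-HFHS, 23.8, 25.2 and 25.7 CPM in LKO-NC, 8.62, 15.1 and 10.9 CPM in FLOX-HFHS and 24.3, 39.6 and 29.6 CPM in FLOX-NC, and was lowest in FLOX-HFHS with no overlap. Fdps, which makes farnesyl diphosphate, had 68.0, 115 and 73.5 CPM in LKO-HFHS, 57.8, 51.4 and 75.9 CPM in LKO-NC, 47.6, 50.5 and 53.2 CPM in FLOX-HFHS and 54.4, 107 and 102 CPM in FLOX-NC. Fatty acid synthesis genes, the branch that SREBP-1c drives, had a median interaction of 0.06 over 29 genes (-0.23 without LKO-HFHS replicate 2 to 0.24 without FLOX-HFHS replicate 2), with the same median diet effect of 1.40 in LKO and in FLOX and 1 member, Aacs, under 0.05.

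Genes of NRF2 and glutathione, which detoxify electrophiles, had 6 positive and 25 negative interactions among 31, with a median of -0.48. It was -0.43 when LKO-NC replicate 2 was left out, -0.25 when FLOX-NC replicate 1 was, -0.26 when FLOX-HFHS replicate 2 was and -0.84 when FLOX-NC replicate 3 was. Their median diet effect was -0.01 in LKO and 0.56 in FLOX. An unadjusted p under 0.05 was reached by Gsta1, Gclc, Gstm1 and Hmox1, all negative (1.74% of all genes), and by Gstt2, which was positive (3.15%). The counts were 8 negative and 1 positive without LKO-NC replicate 1 and 9 negative and 1 positive without FLOX-NC replicate 3. Over all genes, 6.18% were under 0.05 in the former fit and 11.4% in the latter, in either direction. Gstm1, the main mu-class glutathione transferase, had 866, 726 and 726 CPM in LKO-HFHS, 496, 667 and 552 CPM in LKO-NC, 974, 976 and 871 CPM in FLOX-HFHS and 343, 439 and 382 CPM in FLOX-NC. All 4 groups were separate, and the interaction was -0.84 ± 0.28. Hmox1, heme oxygenase, had 6.51, 8.13 and 9.34 CPM in LKO-HFHS, 3.75, 7.32 and 8.26 CPM in LKO-NC, 4.53, 10.5 and 8.05 CPM in FLOX-HFHS and 3.38, 2.55 and 2.79 CPM in FLOX-NC, with FLOX-NC below the other 9 libraries.

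Several of the other lists lay near the median of all genes. Phospholipid remodelling, the pathway of Lpcat3 itself, had 15 positive and 17 negative interactions, a median of -0.04 and 1 of 32 members under 0.05, or 3 without LKO-NC replicate 1, LKO-NC replicate 3 or FLOX-NC replicate 3. That member was Chpt1, a cholinephosphotransferase of phosphatidylcholine synthesis, with 230, 263 and 246 CPM in LKO-HFHS, 371, 416 and 369 CPM in LKO-NC, 372, 381 and 294 CPM in FLOX-HFHS and 266, 331 and 350 CPM in FLOX-NC. LKO-HFHS was its lowest group with no overlap, and the interaction was -0.79 ± 0.27. Lipid droplet and uptake genes had a median of 0.02 over 32 genes, with 0 under 0.05, and with 1 library left out the median ran from -0.12 to 0.10, with up to 3 under 0.05 (without FLOX-HFHS replicate 1). Glucose genes had a median of -0.02 over 28 that likewise ran from -0.18 to 0.06, and periportal and urea cycle genes one of -0.07 over 25 that was -0.54 without FLOX-NC replicate 3. Ribosomal protein genes had 50 of 51 negative interactions with a median of -0.38 and 0 under 0.05, and respiratory chain genes 37 of 39 with a median of -0.32 and 0 under 0.05. FLOX-NC replicates 1 and 3 moved both lists. Without FLOX-NC replicate 3 the median of ribosomal protein genes was -0.66 with 17 under 0.05, and that of respiratory chain genes -0.64 with 9. In that fit 1900 of 16649 genes in all were under 0.05 (11.4%), 910 of them negative. Without FLOX-NC replicate 1 these medians were -0.17 and -0.12, with 0 under 0.05 in both. Without scaling factors, which moves the median of all genes to 0.40, the medians from 12 libraries became 0.01 for ribosomal protein and 0.08 for respiratory chain genes, and those of acute phase genes (-0.40), hepatocyte markers (-0.38), bile acid genes (-0.26) and xenobiotic genes (-0.15) also turned positive. With FLOX-NC replicate 3 left out these 4 medians were -0.58, -0.72, -0.57 and -0.41. Without scaling factors the medians were 1.41 for female-biased, 1.001 for interferon, -0.75 for male-biased, -0.38 for early and heat shock and -0.27 for endoplasmic reticulum genes. Leaving out scaling shifted values upward together, from a median of 0.05 to 0.40 over all genes (r = 0.996 between both fits). Positive medians thus stayed positive and small negative ones turned by that shift, so this setting does not separate the lists.

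Scar and inflammation genes had positive medians. An unadjusted p under 0.05 was reached by 2.78% of the matrix and 18.2% of the chemokine and cytokine genes, against 4.89% of all. Extracellular matrix genes had median diet effects of 1.85 in LKO and 1.28 in FLOX, and a median interaction of 0.44 over 36 genes. It was 0.23 when LKO-NC replicate 2 was left out, 0.96 when LKO-NC replicate 3 was and 0.17 when FLOX-NC replicate 2 was. With all libraries 1 member had an unadjusted p under 0.05. That count was 9 without LKO-NC replicate 3 (4.59% of all genes) and 0 without LKO-HFHS replicate 1 or FLOX-HFHS replicate 2. It was 5 without FLOX-NC replicate 3, where 11.4% of all genes were under 0.05. Col5a1, a chain of type V collagen and the 1 member, had 6.37, 2.70 and 4.54 CPM in LKO-HFHS, 1.42, 0.840 and 1.15 CPM in LKO-NC, 4.89, 2.99 and 4.10 CPM in FLOX-HFHS and 3.38, 2.16 and 2.07 CPM in FLOX-NC. Its LKO-NC libraries were the lowest 3. Chemokine and cytokine genes had a median of 0.23 over 33 (0.12 without FLOX-HFHS replicate 1 to 0.41 without LKO-NC replicate 3), with Cxcl16, Cxcr4, Il1a and Il1rn positive and Il1r1 and Il6ra negative among those under 0.05. These 6 became 3 when LKO-HFHS replicate 1, LKO-HFHS replicate 2 or FLOX-HFHS replicate 1 was left out. Cxcl16, a chemokine for T cells that is also a scavenger receptor, had 9.68, 7.65 and 6.12 CPM in LKO-HFHS, 2.61, 2.13 and 2.43 CPM in LKO-NC, 4.58, 6.80 and 8.33 CPM in FLOX-HFHS and 4.64, 4.97 and 3.07 CPM in FLOX-NC.

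Markers of bile duct cells, of which 10 of 11 were measured, summed to 177 to 237 CPM in LKO-HFHS, 40.7 to 52.1 CPM in LKO-NC, 64.1 to 279 CPM in FLOX-HFHS and 36.1 to 54.1 CPM in FLOX-NC. Both HFHS groups lay above both NC groups. Their median diet effect was 1.87 in LKO and 1.02 in FLOX, and the median interaction of 1.13 was 0.72 without LKO-NC replicate 2 and 0.54 without FLOX-HFHS replicate 1. Acute phase genes, which the liver secretes in inflammation, had 3 of 27 members under 0.05, the serum amyloid genes Saa1 (-2.47) and Saa3 (-1.48) and the siderophore binder Lcn2 (-1.25), all negative (1.74% of all genes). That count was 0 without LKO-NC replicate 2, where Saa3 was at -0.87, and 1 without LKO-HFHS replicate 2. It was 7 without FLOX-NC replicate 3, where 11.4% of all genes were under 0.05. The median of acute phase genes, -0.40, was -0.20 without FLOX-NC replicate 1. Clock genes had a median of 0.28 over 23. It was 0.60 when FLOX-HFHS replicate 1 was left out, 0.02 when LKO-NC replicate 2 was and 0.13 when LKO-HFHS replicate 1 was, and it was below 0 when FLOX-HFHS replicate 2 (-0.0406), FLOX-HFHS replicate 3 (-0.0216) or FLOX-NC replicate 1 (-0.0639) was. Targets of LXR, the receptor that induces Lpcat3, had a median of 0.28 over 14 that ran from 0.16 without LKO-HFHS replicate 2 to 0.43 without LKO-HFHS replicate 1.

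**Figure D5:**
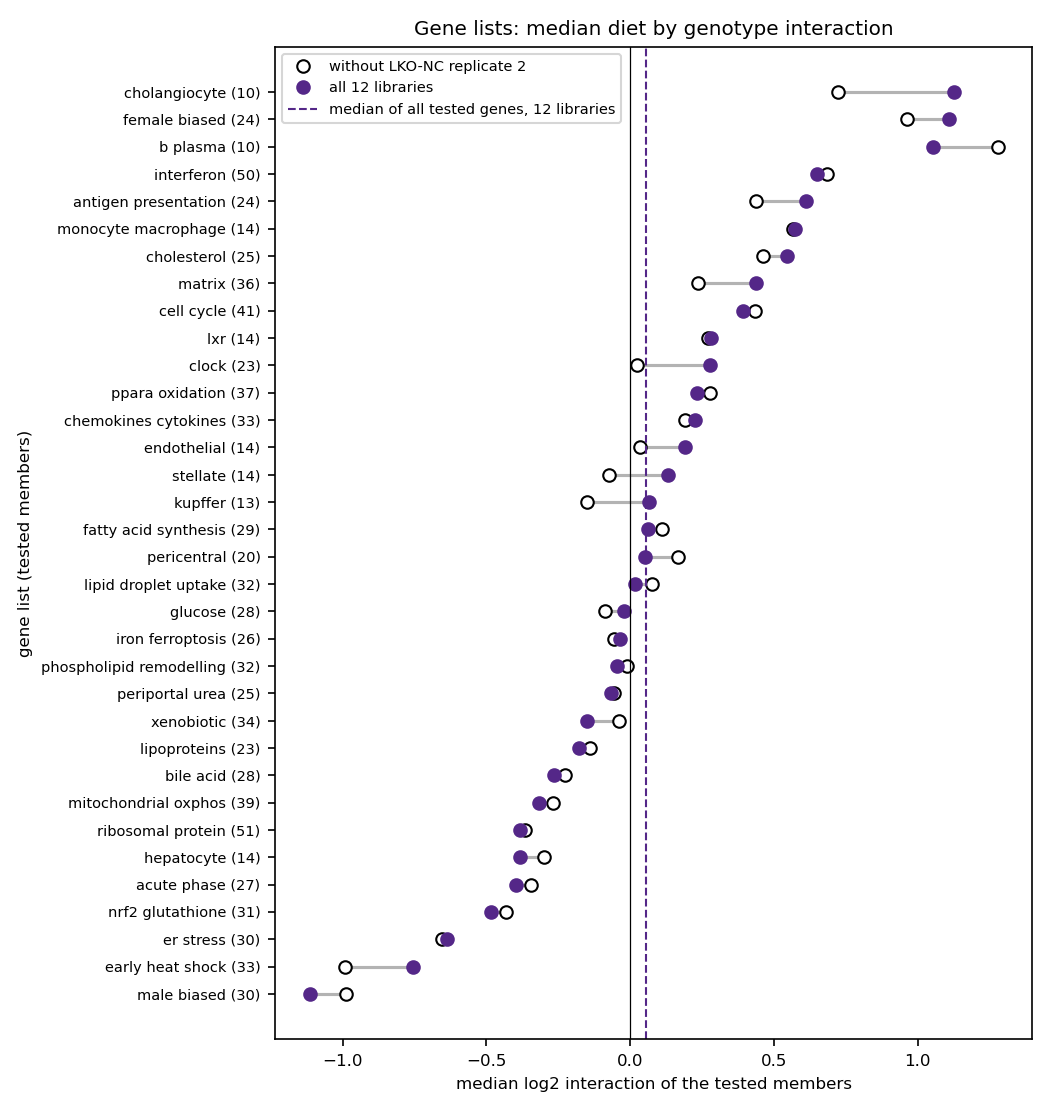
Median log2 interaction of each gene list with at least 10 tested members (number in parentheses), from 12 libraries (purple) and without LKO-NC replicate 2 (open circles). The dashed line is the median of all tested genes, 0.05. Male-biased (-1.11), early and heat shock (-0.76) and endoplasmic reticulum stress genes (-0.64) lie lowest, and cholangiocyte markers (1.13), female-biased (1.11) and B and plasma cell genes (1.05) highest.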

How the data were processed

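Liver polyA RNA was sequenced from 12 samples with a KAPA Stranded mRNA-Seq kit and a SMARTER library kit, per the labels' protocols. The submitters' processing notes name cutadapt, FastQC, HISAT2, StringTie, edgeR and mm10, with no versions or roles. The authors deposited estimated counts per gene, which were already whole (0 values were not), and FPKM, which served 1 alternative only. All 12 columns were mapped to samples, and 0 columns of other samples were found.

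Counts of 55401 genes were filtered with filterByExpr (15982 kept), scaled by TMM and fitted in R 4.3.3 with edgeR 4.0.16 (robust quasi-likelihood, 8 residual degrees of freedom, 4 groups of 3 libraries, Benjamini-Hochberg adjustment at 0.05). That design was written for plain counts and applied unchanged to these estimated counts. CPM are TMM-scaled. Genes were picked for naming by set rules, with clone and predicted names (Gm and a number, or ending in Rik) left out. They were the 25 of smallest interaction p and the 10 of smallest p without LKO-NC replicate 2. The 5 of largest size each way, with a p under 0.01 and a group mean of at least 1 CPM, were added. So were the 3 of smallest p per list. Not all picked genes are described, and Hormad2, Tbc1d10c, Cenpf and Capn8 are among those that are not. Other genes, such as Egr1, Fos, Hspa5 and Ddit3, were named as list members after their values were seen. The group that stands apart was found on log2 CPM (prior count 2), where no overlap means that all 3 libraries lay above or below the other 9. The 27 gene lists and 14 lists of cell type markers, like the members, were chosen with earlier results of these data known.

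Alternatives used limma 3.58.1 and DESeq2 1.42.0, other scaling and filters, a replicate block, covariates and libraries left out, 25 settings in all, of which 2 were chosen after seeing the data. No pair of libraries agreed within sampling noise (lowest chi-square per gene 83.3). Floors and intervals from counts cover counting error only, and the fits were tested on simulated data.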

Additional observations from a re-analysis of the deposited data

How the results depend on the processing

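Over 185 genes and 25 settings (4605 values), 4535 kept their direction and side of the threshold, 25 became called, 22 of them by DESeq2, and 45 values of 16 genes turned round. None of the 16 was called with all libraries (0 of 16). With limma voom Fasn was -0.12, Cfd 0.88, Krt7 -0.27, S100a8 0.29 and Lck -0.0615, and with the deposited FPKM in limma Gstm3 was 0.24, Cfd 0.11, Mogat2 0.19, S100a8 0.285 and Cela2a 0.22. With the 4 libraries numbered 1 left out Sult1e1 was 2.72, Fasn -0.46, Eng -0.0620, Lck -0.16 and Trac -0.0293, and without the 2 libraries of lowest scaling factor Fasn was -0.52, Scd1 -0.70 and Trac -0.59. Gstm3 was 0.0288 without scaling factors, and Cela1 was -0.29 with the rRNA share as a covariate. With 1 library left out, Sult1e1 ran from -2.25 to 3.18, Fasn from -0.34 to 0.56, Scd1 from -0.40 to 1.03, Gstm3 from -0.62 to 0.23, Lipe from -0.0677 to 1.35, Eng from -0.0145 to 0.62, Hba-a1 from -0.74 to 0.0027, Gpm6a from -0.0418 to 0.81, S100a8 from -1.05 to 0.16, Cela1 from -0.33 to 0.46 and Trac from -0.0622 to 7.49. The count of genes called, 0, became 33 with DESeq2 and 2 with the 4 libraries numbered 1 left out (Klf10 at -5.08 and Rdh9 at 5.504, named after their values were seen). It was 0 to 1 with 1 library left out, the 1 being Rbm42 at -5.99 without FLOX-NC replicate 3, against -1.18 with all. The count with an unadjusted p under 0.05, 782, became 1278 without scaling factors, 2645 with limma voom, 1878 with the rRNA share as a covariate and 1186 with the deposited FPKM in limma, and ran from 596 without FLOX-HFHS replicate 2 to 1900 without FLOX-NC replicate 3. The cause was not tested.

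With the replicate number as a block that count was 1327, 0 genes were called and Cela1 was -0.0392, against 0.10 without it. The lowest adjusted p in edgeR was then 0.221, against 0.758 without the block, and the median standard error was 0.455. Pairs of libraries with the same number had correlations of -0.0334 to 0.357, over 0.1 in 13 of 18, against -0.386 to 0.305 in other pairs. Of 12 libraries, 6 correlated best with one of their own number. Whether the number marks a pairing or a batch was not tested, and the main fit does not use it. In the main fit, with 8 residual degrees of freedom, the median standard error of the interaction over all tested genes was 0.562 on the log2 scale.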
